A study of Rattus norvegicus with 9 samples.

Results

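The genes examined here code for 8 membrane proteins of red cells or their precursors. The skeleton proteins are Sptb, Ank1, Epb41 and Epb42, and the surface proteins are Slc4a1, Rhag, Ermap and Tfrc. The genes were taken from the deposited count table by gene symbol alone. Each symbol matched 1 row, which makes 8 of the 23768 genes listed, and all 8 were among the 16816 genes that passed a filter on low counts and were tested. RNA had been extracted from tibia of male Sprague Dawley rats (Rattus norvegicus), with the marrow not named separately in the labels, and 9 libraries of total RNA were sequenced. The labels assign 3 libraries to each of 3 treatments: Model (numbers 1, 2 and 5), GelMA (numbers 2, 3 and 4) and PMLGH (numbers 2, 3 and 4). The title of the series concerns bone healing in diabetes and a peptide that mimics the enzyme LOX (lysyl oxidase), and GelMA commonly stands for gelatin methacryloyl, a modified gelatin that can be set into a hydrogel. The sources used here do not give what was done to the Model rats, whether the GelMA and PMLGH rats had it done too, what PMLGH stands for, the age of the rats or the time of sampling. The labels do not say that each library is a separate animal, so p-values measure the spread between these libraries, which may be partly technical. No batch is labelled, and a batch that followed the groups cannot be told apart from them.

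A red cell keeps its shape and its ability to deform because a net of spectrin lies beneath its membrane. Ankyrin ties that net to the anion exchanger band 3, and protein 4.1 holds the junctions where spectrin meets actin. The transcripts are made in erythroblasts, the nucleated red cell precursors of the marrow, and are lost as the cell matures, so in a sample of bone with its marrow they come largely from these precursors. Epb41 and Tfrc are also expressed in many other cell types.

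All 8 genes were lower in PMLGH than in Model, by 19.1% (Tfrc) to 31.7% (Epb42). In GelMA, 7 of the 8 were lower than in Model, by 21.1% (Sptb) to 26.2% (Epb41), and Tfrc did not pass the test. None of the 8 passed the test between PMLGH and GelMA. Calls rest on edgeR's quasi-likelihood test fitted to all 9 libraries, at a Benjamini-Hochberg adjusted p under 0.05 over all tested genes. In PMLGH against Model 11.9% of all tested genes were called lower, and in GelMA against Model 9.88% were. The median log2 difference of the 8 genes was -0.40 in PMLGH against Model and -0.39 in GelMA against Model, beside medians of 0.02 and 0.03 over all tested genes. Both comparisons use the same 3 Model libraries, so the second is no independent repeat of the first. In bulk tissue, fewer cells of a type and less RNA per cell cannot be told apart.

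**Figure D1:**
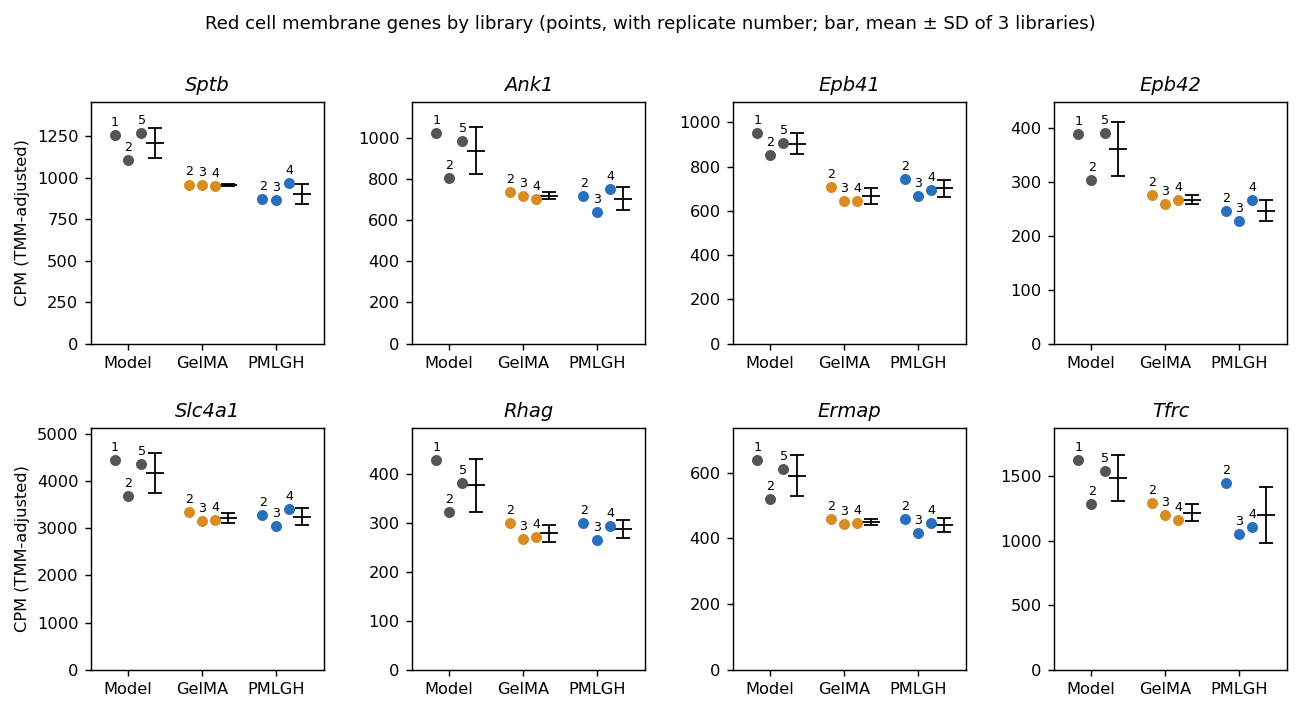
Level of each gene in every library, in CPM (counts scaled to library size) on a linear axis, with points for the 3 libraries of each group and the group mean ± SD. For 7 genes every Model point lies above every GelMA and PMLGH point, and for Tfrc the groups overlap.

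Depth was alike across libraries, at 34571478 to 37166383 counts each. The 8 genes had 8438 to 151006 counts per library, and counting error alone is 1.09% at the lowest of these. The spread between libraries of a group was larger, with a common biological coefficient of variation of 10.1%. Model 2 stood apart within its group: averaged over genes, the chi-square of its counts was 33 against Model 1 and 27.7 against Model 5, while that of Model 1 against Model 5 was 15.7. Model 2 was the lowest Model library for all 8 genes. Without it, the 8 genes were again lower in PMLGH, by log2 differences from -0.43 (Tfrc and Epb41) to -0.69 (Epb42).

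The promoters of the genes were read for GATA words, since the factor GATA1, which drives erythroblast genes, binds such words. The 250 bases before the start were available for 6 of the 8 genes in the RefSeq table (build GRCr8), and Ank1 and Slc4a1 were not among them. The words searched were AGATAA or AGATAG, and TGATAA or TGATAG, each on both strands. They occurred in 4 of the 6 promoters: at 107 and 57 bases before the start in Sptb, at 82 in Epb42, at 31 in Rhag and at 68 in Ermap, counted to the first letter of the word. These 4 promoters are shown with the words in capitals, 5′ to 3′ along the gene, on the minus strand at chr6:101170279-101170528 (Sptb), chr3:128451684-128451933 (Epb42), chr9:27594391-27594640 (Rhag) and chr5:138088159-138088408 (Ermap).
Sptb: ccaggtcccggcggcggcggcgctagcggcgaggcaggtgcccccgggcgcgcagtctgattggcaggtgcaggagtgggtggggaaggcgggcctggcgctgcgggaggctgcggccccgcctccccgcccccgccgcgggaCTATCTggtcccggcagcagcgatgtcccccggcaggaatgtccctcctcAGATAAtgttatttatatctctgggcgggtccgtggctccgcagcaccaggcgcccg
Epb42: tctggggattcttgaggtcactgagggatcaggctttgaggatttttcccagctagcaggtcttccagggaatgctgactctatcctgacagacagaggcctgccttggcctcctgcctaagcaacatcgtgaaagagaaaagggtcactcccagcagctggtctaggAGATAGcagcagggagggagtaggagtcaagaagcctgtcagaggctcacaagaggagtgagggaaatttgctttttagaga
Rhag: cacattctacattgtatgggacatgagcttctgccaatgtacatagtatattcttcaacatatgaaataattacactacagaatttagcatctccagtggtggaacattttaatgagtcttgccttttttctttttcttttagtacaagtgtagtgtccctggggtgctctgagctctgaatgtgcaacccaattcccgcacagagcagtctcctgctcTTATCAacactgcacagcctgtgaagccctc
Ermap: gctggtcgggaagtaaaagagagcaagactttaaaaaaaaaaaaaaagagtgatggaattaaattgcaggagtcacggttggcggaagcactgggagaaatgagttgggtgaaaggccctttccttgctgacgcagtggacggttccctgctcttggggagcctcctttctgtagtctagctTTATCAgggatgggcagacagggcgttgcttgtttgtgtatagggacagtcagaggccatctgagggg
The base composition differed widely, from 42% G and C in Rhag to 72.8% in Sptb. No such word was in this window of Epb41 or Tfrc. Among all 27457 promoters of the same length in the table, 26.7% held a GATA word, and among the 12519 that belong to genes tested here, 18.4% did. Of a list of other erythroid genes 7 of 18 promoters held one, of 38 further red cell membrane genes 7 of the 29 promoters available, and of related genes that serve other tissues 0 of 16. A match of letters is a description and not evidence of binding.

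Sptb encodes the beta chain of erythroid spectrin, the long protein of the net, and of the 6 promoters read, its own held a pair of GATA words. It had 1254, 1104 and 1266 CPM (counts-per-million, after library sizes were scaled by TMM, the trimmed mean of M values) in Model 1, 2 and 5, 958, 953 and 946 CPM in GelMA 2, 3 and 4, and 869, 866 and 968 CPM in PMLGH 2, 3 and 4. Every Model library was above every other library, and the GelMA libraries lay within a few CPM of their mean of 952.4 ± 5.7 (SD, n = 3). The log2 difference from Model was -0.42 (SE 0.066) in PMLGH and -0.34 (SE 0.066) in GelMA, with edgeR adjusted p of 0.000269 and 0.0018.

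Ank1 encodes ankyrin 1, the adaptor between spectrin and band 3. Its levels were 1023, 808 and 986 CPM in Model 1, 2 and 5, 737, 721 and 703 CPM in GelMA 2, 3 and 4, and 719, 643 and 754 CPM in PMLGH 2, 3 and 4. The groups did not overlap between Model and either treatment. Ank1 was lower by a log2 difference of -0.41 (SE 0.083) in PMLGH and -0.38 (SE 0.083) in GelMA, with edgeR adjusted p of 0.00174 and 0.00377.

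Epb41 encodes protein 4.1R, which binds spectrin, actin and membrane proteins at the junctions of the net. It had 950, 855 and 906 CPM in Model 1, 2 and 5, 710, 647 and 645 CPM in GelMA 2, 3 and 4, and 743, 669 and 695 CPM in PMLGH 2, 3 and 4. The Model libraries were again the highest, and here the GelMA mean of 667.4 ± 36.98 CPM was the lowest of the 3 means (SD, n = 3). The log2 difference from Model was -0.36 (SE 0.064) in PMLGH and -0.44 (SE 0.064) in GelMA, with edgeR adjusted p of 0.000674 and 0.000212.

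Epb42 encodes protein 4.2, a member of the transglutaminase family without enzyme activity that binds band 3 and ankyrin. Its levels were 389, 304 and 390 CPM in Model 1, 2 and 5, 275, 259 and 266 CPM in GelMA 2, 3 and 4, and 245, 227 and 267 CPM in PMLGH 2, 3 and 4. Model 2 was far below the other Model libraries and still above all GelMA and PMLGH libraries. Epb42 had the lowest log2 difference of the 8 genes in PMLGH, -0.55 (SE 0.087; edgeR adjusted p = 0.000281), and -0.44 (SE 0.087; adjusted p = 0.00216) in GelMA.

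Of the surface genes, Slc4a1 had the highest level in every library. It encodes band 3, the chloride and bicarbonate exchanger that is also the main anchor of the skeleton. It reached 4454, 3689 and 4366 CPM in Model 1, 2 and 5, 3343, 3161 and 3164 CPM in GelMA 2, 3 and 4, and 3282, 3047 and 3416 CPM in PMLGH 2, 3 and 4. Model did not overlap with either treatment, and GelMA and PMLGH lay in the same range. The log2 difference from Model was -0.36 (SE 0.074) in PMLGH and -0.37 (SE 0.074) in GelMA, with edgeR adjusted p of 0.00215 and 0.0022.

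Rhag encodes the Rh-associated glycoprotein, an ammonium channel that carries the Rh proteins to the surface. Its levels were 430, 322 and 382 CPM in Model 1, 2 and 5, 299, 267 and 271 CPM in GelMA 2, 3 and 4, and 301, 266 and 295 CPM in PMLGH 2, 3 and 4. Model 2 was only slightly above GelMA 2 and PMLGH 2, and the other 2 Model libraries were well above both. Rhag was lower by a log2 difference of -0.40 (SE 0.089) in PMLGH and -0.44 (SE 0.089) in GelMA, with edgeR adjusted p of 0.0038 and 0.00251.

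Ermap encodes the erythroid membrane-associated protein, which in humans carries the Scianna blood group antigens. It had 640, 521 and 611 CPM in Model 1, 2 and 5, 460, 442 and 446 CPM in GelMA 2, 3 and 4, and 459, 417 and 447 CPM in PMLGH 2, 3 and 4. All Model libraries were above all others. The log2 difference was -0.42 (SE 0.072) in PMLGH and -0.39 (SE 0.072) in GelMA, with edgeR adjusted p of 0.000516 and 0.00118.

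Tfrc encodes transferrin receptor 1, through which erythroblasts and other dividing cells take up iron. Its levels were 1630, 1284 and 1540 CPM in Model 1, 2 and 5, 1295, 1202 and 1161 CPM in GelMA 2, 3 and 4, and 1446, 1051 and 1106 CPM in PMLGH 2, 3 and 4. Both GelMA 2 and PMLGH 2 were above Model 2, and PMLGH 2 was far above the other PMLGH libraries. Tfrc was lower in PMLGH by a log2 difference of -0.31 (SE 0.11; edgeR adjusted p = 0.0466). In GelMA the difference was -0.28, with a 95% interval from -0.51 to -0.05 before adjustment and an edgeR adjusted p of 0.0724. The call in PMLGH was the least stable of the 8: it was lost in 11 of 18 alternative analyses, whose adjusted p reached 0.211. Without PMLGH 2 the difference was -0.48 (edgeR adjusted p = 0.00291), and without Model 2 it was -0.43 in PMLGH (adjusted p = 0.00169) and -0.41 in GelMA (adjusted p = 0.0031). Without Model 1, Model 5, GelMA 2, GelMA 3, PMLGH 3 or PMLGH 4 the call in PMLGH was lost, with edgeR adjusted p of 0.174, 0.111, 0.055, 0.052, 0.211 and 0.169.

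For the other 7 genes, no library of PMLGH overlapped with Model, and the same 7 did not overlap between GelMA and Model. Over all tested genes, 18.4% were lower without overlap in PMLGH against Model and 16.8% in GelMA against Model. These 7 genes kept their call in both comparisons in all of the 18 alternative analyses of each comparison that scale to the whole library, with log2 differences between -0.69 and -0.29.

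**Figure D2:**
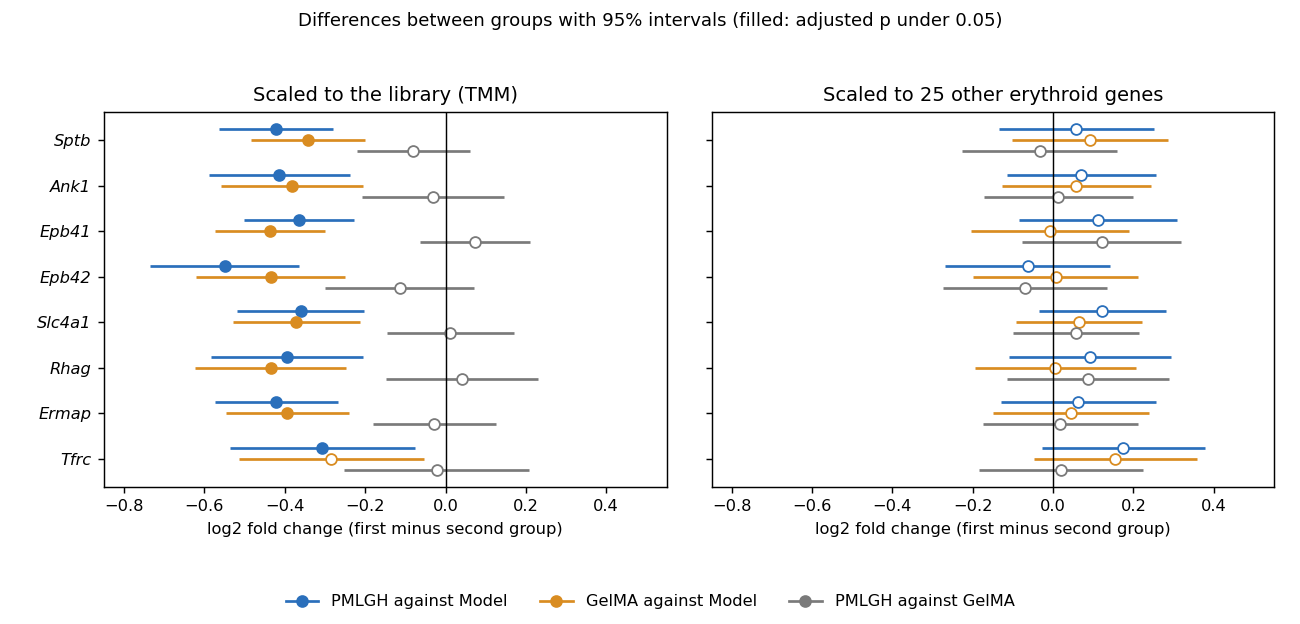
Log2 difference of each gene in the 3 comparisons, on the left with library scaling by TMM and on the right relative to 25 other erythroid transcripts, with 95% intervals and filled points where the adjusted p was under 0.05. On the left the genes lie between -0.55 and -0.28 against Model and near 0 in PMLGH against GelMA, and on the right the intervals of all 8 genes include 0.

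The comparison of PMLGH with GelMA asks how these treatments differed from each other. None of the 8 genes was called (edgeR, adjusted p between 0.581 and 0.967), and none had an unadjusted p under 0.05, where 3.44% of all tested genes were called and 2625 had an unadjusted p under 0.05. DESeq2 called none of the 8 either. The estimates ran from -0.11 for Epb42, with a 95% interval from -0.30 to 0.07, to 0.07 for Epb41, with an interval from -0.06 to 0.21. Of the skeleton genes, Sptb had an interval from -0.22 to 0.06 and Ank1 from -0.21 to 0.15. Of the surface genes, Slc4a1 (-0.15 to 0.17), Ermap (-0.18 to 0.13) and Rhag (-0.15 to 0.23) had narrower intervals than Tfrc (-0.25 to 0.21). Each interval is compatible with a small change in either direction, so equal levels were not shown.

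The levels of the 8 genes were then set against other red cell transcripts. The list of comparison held 25 genes, among them the heme enzymes Alas2 and Fech, the transcription factors Klf1 and Gata1 and the globin chaperone Ahsp. Of these 25, 24 were lower in PMLGH and 22 in GelMA than in Model, and none was higher, with medians of -0.47 and -0.43. Klf1, the erythroid Krüppel-like factor, was at 327.8 ± 37.13 CPM in Model and 217.5 ± 16.18 CPM in PMLGH (SD, n = 3), a log2 difference of -0.59 (edgeR adjusted p = 7.03e-05). Slc38a5, a glutamine transporter, was lower in PMLGH than in Model by a log2 difference of -0.60 (edgeR adjusted p = 1.58e-05). Between PMLGH and GelMA, Slc38a5 was the only 1 of the 25 called, where 3.44% of all tested genes were. It was lower in PMLGH by a log2 difference of -0.29 (edgeR adjusted p = 0.02855). The libraries were rescaled by the median ratio of these 25 genes. On the log2 scale this size factor exceeded the TMM factor by 0.451, 0.091 and 0.371 in Model 1, 2 and 5, and the difference was negative in the other 6 libraries, from -0.059 to -0.299.

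Relative to the 25 genes, none of the 8 was called in any of the 3 comparisons by edgeR's quasi-likelihood test. With that scaling the median of all tested genes shifted to 0.49 in PMLGH against Model and 0.45 in GelMA against Model. The share of all tested genes called was then 60.3% for PMLGH and 57.1% for GelMA, each against Model, and 1.34% for PMLGH set against GelMA. In PMLGH against Model the relative differences were between -0.06 (Epb42) and 0.17 (Tfrc), and in GelMA against Model between -0.01 (Epb41) and 0.15 (Tfrc). Since 24 and 22 of the 25 genes were themselves lower than in Model, this scaling moves every gene upward alike, and it describes only how the 8 genes compared with these transcripts. The 8 genes were lower as a share of the whole library, and their difference from the 25 genes was not detectable. Tfrc had the highest relative estimate in both comparisons with Model, with 95% intervals from -0.03 to 0.38 and from -0.05 to 0.36. Within PMLGH its relative level, centred on its mean over the 9 libraries, was 0.275 in PMLGH 2, 0.005 in PMLGH 3 and -0.102 in PMLGH 4, while the Model libraries lay between -0.114 and -0.095. Without PMLGH 4, Tfrc passed the test as higher relative to the 25 genes, at a log2 difference of 0.25 (edgeR adjusted p = 0.0485).

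**Figure D3:**
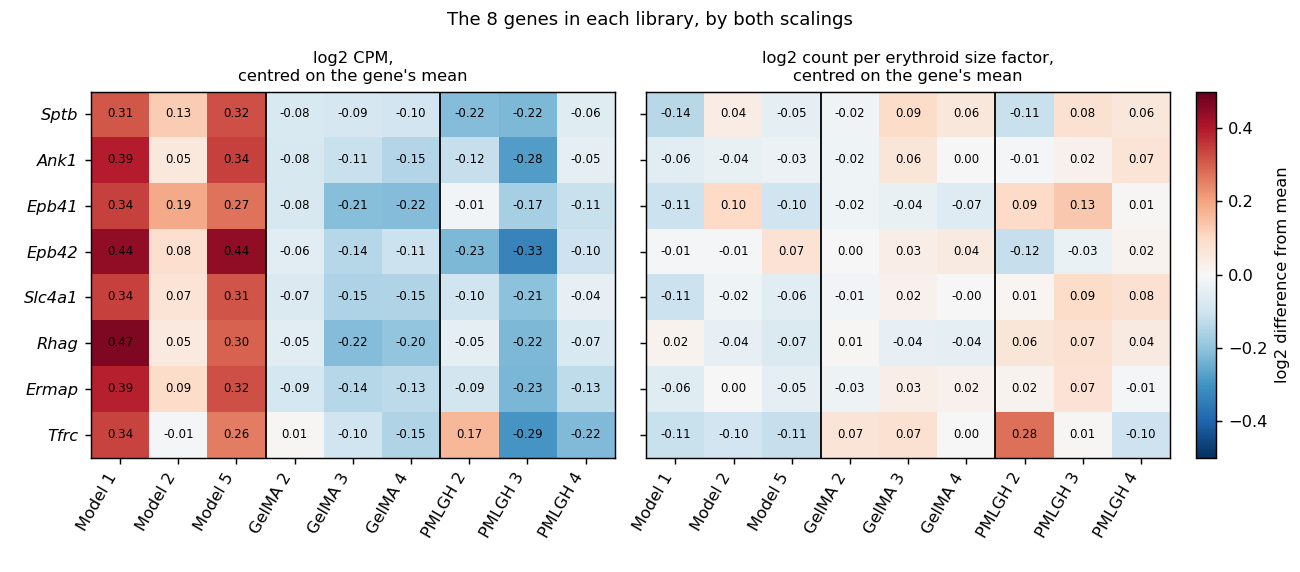
Log2 CPM of each gene in each of the 9 libraries, centred on the mean of that gene over the libraries, with the color scale in log2 units. Model 1 and Model 5 are high for all 8 genes, Model 2 lies closer to the treated libraries, and Tfrc is high in PMLGH 2.

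To compare levels between genes, FPKM were used, in which a count is divided by the length of its gene and by library size. Slc4a1 was first in every group, at 914.5 ± 84.57 FPKM in Model, 726 ± 14.29 in GelMA and 719.6 ± 38.1 in PMLGH (SD, n = 3). In the same order of groups, Tfrc followed at 270.8, 228.4 and 221.4 FPKM and Rhag at 173.8, 132 and 133.5 FPKM. Ermap (145.4, 113.7 and 109.8 FPKM) and Epb42 (139.8, 106.2 and 96.44 FPKM) came next. The lowest were Sptb (115.1, 93.22 and 86.7 FPKM), Ank1 (99.16, 78.13 and 75.2 FPKM) and Epb41 (97.12, 73.62 and 76.2 FPKM), with Epb41 ahead of Ank1 in PMLGH. The order was otherwise the same in the 3 groups. In GelMA, Ank1 and Epb41 were the only neighbors in the order whose libraries overlapped. In PMLGH, Epb42 overlapped with Sptb and Ank1 with Epb41, and in Model all neighbors from Rhag downward overlapped. The 8 genes together took 0.992% ± 0.093 of all counts in Model, 0.788% ± 0.0163 in GelMA and 0.771% ± 0.0478 in PMLGH (SD, n = 3).

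Ratios of genes whose proteins bind each other were compared as well. The ratio of Epb42 to Slc4a1 in FPKM was 0.152 ± 0.00631 in Model, 0.146 ± 0.00191 in GelMA and 0.134 ± 0.0036 in PMLGH (SD, n = 3). All 3 PMLGH libraries were below all other libraries, at an exact two-sided permutation p of 0.1, the smallest that 3 against 3 libraries allow, and an adjusted p of 0.467 over the 21 ratio tests. The libraries overlapped for the ratios of Ank1, Rhag and Epb41 to their partners, such as Ank1 to Slc4a1 at 0.108, 0.108 and 0.104 in Model, GelMA and PMLGH. With this design no ratio could reach an exact p under 0.05.

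The other genes of the red cell membrane were read from a list of 38, of which 37 were in the table and all 37 were tested. In PMLGH against Model, 21 were lower, 3 higher and 13 not called, with a median log2 difference of -0.30. In GelMA against Model, 21 were lower, 4 higher and 12 not called, with a median of -0.24. Over all tested genes, 11.9% were called lower and 15.7% higher in PMLGH against Model. The same shares in GelMA against Model were 9.88% and 12.7%.

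The partners with the smallest p in PMLGH against Model were Smim1, Dmtn and Kcnn4, all lower, and Slc2a1, which was higher. Smim1, the small protein that carries the Vel antigen in humans, fell by 0.65 on the log2 scale, from 49.16 to 31.41 CPM. Dmtn, the actin-bundling protein dematin, fell by 0.54 and Kcnn4, the calcium-activated potassium channel, fell by 0.53. The urea transporter Slc14a1 fell by 0.55 in GelMA. Slc2a1, the glucose transporter GLUT1, rose in both. It had 6.08, 7.12 and 7.81 CPM in Model 1, 2 and 5, 16, 15.1 and 13.3 CPM in GelMA 2, 3 and 4, and 18.8, 19.8 and 18.1 CPM in PMLGH 2, 3 and 4. Its log2 difference from Model was 1.43 in PMLGH and 1.08 in GelMA (edgeR adjusted p = 4.47e-07 and 1.33e-05), at a level far below that of the skeleton genes. The other partners higher in PMLGH were Bcam (0.68), a laminin receptor, and Bsg (0.17), a chaperone of lactate transporters, both named after their values were seen. Which cells of the tibia the transcripts of Slc2a1, Bcam and Bsg came from was not tested, so they may not be of red cell origin. Between PMLGH and GelMA only Sema7a was called among the 37, lower by a log2 difference of -0.52 (edgeR adjusted p = 0.0275). Its means were 32.57 CPM in Model, 50.03 in GelMA and 34.84 in PMLGH. Against Model, Sema7a was called higher in GelMA (0.62) and was not called in PMLGH (0.10).

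Relatives of the 8 genes that serve other tissues were read next. Of 19 such genes in the spectrin, ankyrin, protein 4.1, anion exchanger, Rh, transferrin receptor and transglutaminase families, 18 were tested. In PMLGH against Model 7 were higher, 2 lower and 9 not called (median 0.29), where 15.7% of all tested genes were called higher. In GelMA against Model 6 were higher, 2 lower and 10 not called (median 0.24), where 12.7% were. Epb41l2, a protein 4.1 of many tissues, had 99.71 ± 8.186 CPM in Model, 125.3 ± 4.426 in GelMA and 131.5 ± 4.54 in PMLGH (SD, n = 3). Its log2 difference from Model was 0.40 in PMLGH and 0.33 in GelMA (edgeR adjusted p = 0.000302 and 0.00176), opposite in sign to that of Epb41. Epb41l1 (0.44) and Tgm2, tissue transglutaminase (0.39), also rose in PMLGH. Ank2 rose by 0.69 in GelMA, and in PMLGH it was lower than in GelMA by a log2 difference of -0.48 (edgeR adjusted p = 0.0376). The genes called lower were Tfr2 and Sptbn4 in PMLGH, and Tfr2 and Tgm1 in GelMA. Tfr2, transferrin receptor 2, is expressed in erythroblasts as well as in liver. It had 86, 59.4 and 79.8 CPM in Model 1, 2 and 5, 51.9, 48.8 and 47.5 CPM in GelMA 2, 3 and 4, and 48.5, 44.7 and 47 CPM in PMLGH 2, 3 and 4. Model did not overlap with either treatment, GelMA and PMLGH overlapped with each other, and Tfr2 was lower than in Model by log2 differences of -0.68 in PMLGH and -0.60 in GelMA (edgeR adjusted p = 0.000188 and 0.0007).

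Genes of iron uptake and handling, the path that Tfrc opens, showed no common direction. Of 22 listed genes 20 were tested, Tfr2 among them. In PMLGH against Model 4 were higher and 6 lower (median -0.12). In GelMA against Model 3 were higher and 8 lower (median -0.09), and none was called between PMLGH and GelMA. The shares over all tested genes were 15.7% higher and 11.9% lower in PMLGH against Model. They were 12.7% and 9.88% in GelMA against Model. Cp, the plasma ferroxidase ceruloplasmin, rose from 106.8 CPM in Model to 150.4 in PMLGH and 140.7 in GelMA, log2 differences of 0.49 and 0.40. Steap2, a metalloreductase, rose by 0.81 in PMLGH. Snx3, a sorting protein that recycles the transferrin receptor, fell by 0.32 in PMLGH.

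The genes whose pattern over the 9 libraries was most like that of a member were sought by the root mean square difference of centred log2 CPM among 14215 genes. Closest to Slc4a1 were E2f2 (0.0164), Adipor1 (0.0203) and Trak2 (0.0224). Trak2 was also the closest to Ermap (0.0242), followed by the heme enzymes Urod (0.0243) and Alas2 (0.0247). Hemgn, the erythroid nuclear protein hemogen, was closest to Rhag (0.0301). The nearest genes were Slbp (0.0315) for Sptb, Tk1 (0.0286) for Ank1 and Kifc1 (0.032) for Epb41, and Zfpm1 (0.0321) was among the nearest to Epb42. Tfrc had no gene as near: its closest was Rpl17 at 0.0595. Among the 8 genes, Ank1 and Slc4a1 were the most alike (0.0348) and Epb42 and Tfrc the least alike (0.16). The likeness is a description over 9 libraries that share the same group differences.

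Markers of some other cells differed between the groups as well, while the summed neutrophil markers overlapped between the groups. Beside the counts below, 15.7% of all tested genes were called higher and 11.9% lower in PMLGH against Model. In GelMA against Model these shares were 12.7% and 9.88%. Osteoblast markers summed to 16150 to 20490 CPM in Model, 33000 to 36570 in GelMA and 34760 to 40220 in PMLGH, and 12 of 12 were higher in GelMA and 8 of 12 in PMLGH. All 9 tested fibroblast markers were higher in both, with sums of 1262 to 1425 CPM in Model, 2856 to 3206 in GelMA and 4064 to 4698 in PMLGH. Skeletal muscle markers summed to 597.1 to 837.1 CPM in Model, 2814 to 3439 in GelMA and 946.5 to 1317 in PMLGH, with 12 of 12 higher in GelMA and 11 of 12 in PMLGH. No osteoblast, fibroblast or muscle marker was at 0 in any library. Megakaryocyte markers were lower, 9 of 10 in PMLGH and 8 of 10 in GelMA, with no marker higher in either. Of 11 tested neutrophil markers, 3 were higher and 0 lower in PMLGH, and 1 was higher and 0 lower in GelMA, with sums of 11340 to 14990 CPM in Model, 12910 to 13930 in GelMA and 13030 to 16760 in PMLGH. Cell cycle genes, which erythroblasts and other dividing cells express, were lower for 27 of 30 in PMLGH and 19 of 30 in GelMA, with medians of -0.26 and -0.23. Globins took 9.92% of counts in Model, 7.49% in GelMA and 7.32% in PMLGH. Without globin genes in the totals, the calls of all 8 genes in PMLGH and of the 7 genes other than Tfrc in GelMA held. The part of these other cells in the lower levels of the 8 genes was not tested.

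**Figure D4:**
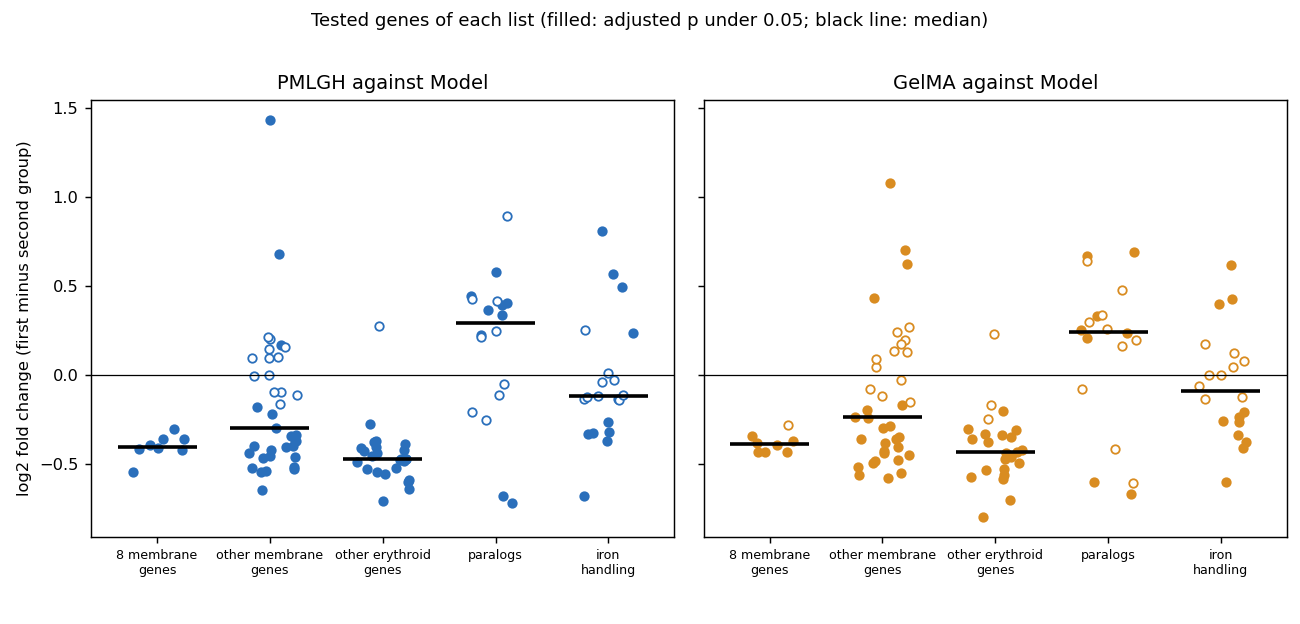
Log2 difference from Model of every tested gene in the lists, as points by list, with the list median as a line, for PMLGH and for GelMA, and filled points where the adjusted p was under 0.05. The 8 genes and the other erythroid transcripts lie almost wholly below 0, the membrane partners mostly so, and the related genes of other tissues mostly above 0.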

How the data were processed

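RNA of rat tibia was measured in 9 libraries, grouped by the treatment in the labels. The authors deposited a table of raw counts per gene symbol, and a table of FPKM. For all 22798 genes with a count, the deposited FPKM could be recomputed from the counts with 1 fixed length per gene (relative tolerance 0.001), so they add no independent measurement. DESeq2 and R 3.2.0 are named in the submitters' processing notes, with no role. The sources used here do not give the aligner, counter, genome build, annotation or strand setting, so overlapping and antisense genes cannot be told apart.

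Counts of genes kept by filterByExpr were scaled by TMM and tested with edgeR 4.0.16 in R 4.3.3 (glmQLFit and glmQLFTest, 3 groups, no covariate, all 9 libraries), with Benjamini-Hochberg adjustment over 16816 genes. CPM use TMM-scaled totals, with a prior count of 2 for log2 CPM. Ratios were compared by exact two-sided permutation tests. DESeq2 1.42.0 and limma 3.58.1 on log2(FPKM + 1) and log2(FPKM + 0.1), other scalings and filters, and each library left out in turn were the alternatives. The edgeR steps were tested on simulated data, and the DESeq2 and limma steps were not. Totals per library were 34571478 to 37166383 counts.

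The 8 genes and all lists were chosen with earlier results of these data known. From the lists of membrane partners, related genes and iron genes, the 4 of smallest p in PMLGH against Model were named, and up to 2 in each other comparison. The 2 of smallest p were named from the other erythroid genes, and Tfr2 and Epb41l2 whatever their values. Some genes that these rules name are not reported here.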

Additional observations from a re-analysis of the deposited data

How the results depend on the processing

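Apart from Tfrc, the 7 genes kept direction and call against Model under the 18 alternatives that scale to the whole library, and there the number called was 7 or 8 of 8 in both comparisons with Model and 0 in PMLGH against GelMA. The Tfrc difference in PMLGH ranged from -0.48 to -0.22 (adjusted p from 0.00169 to 0.211): besides the libraries named with its values, the call was lost with robust spread (0.0721), with only both groups fitted (0.0742), with DESeq2 (0.102) and with limma (0.103 and 0.0962). In GelMA, Tfrc passed in 4 of 18 alternatives. The number of all genes called in PMLGH against GelMA was 578, and became 1059 with only those groups fitted, 1037 with a replicate block, 384 with limma on log2(FPKM + 0.1), and 303 (without PMLGH 3) to 1050 (without Model 2) with 1 library left out. GelMA and PMLGH share numbers, but same-numbered libraries did not deviate together (correlations 0.014, 0.027 and -0.008), so the numbers were not taken as pairs. Relative to other erythroid transcripts, 0 to 1 of 8 genes passed in PMLGH against Model with 1 library left out. Signs of estimates near 0 were not stable. Slc4a1 in PMLGH against GelMA became -0.0079 with upper-quartile scaling and -0.0139 with limma at either pseudocount. With 1 library left out, PMLGH against GelMA ranged from -0.0265 to 0.0552 for Slc4a1, -0.0816 to 0.0314 for Ank1, -0.1833 to 0.0646 for Tfrc and -0.0629 to 0.0109 for Ermap. On the relative scale it ranged from -0.0648 to 0.0255 for Sptb, -0.014 to 0.051 for Ank1, -0.0932 to 0.0931 for Tfrc and -0.0012 to 0.0438 for Ermap. On that scale GelMA against Model ranged from -0.0427 to 0.0509 for Epb41, -0.0182 to 0.0306 for Epb42 and -0.0182 to 0.0318 for Rhag, and with only those groups fitted it was -0.0014 for Epb42 and -0.002 for Rhag. The cause was not tested. Counting error was at most 1.09% for these genes, below the common coefficient of variation between libraries of 10.1%.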
